A study of Homo sapiens with 6 samples.

Results

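The genes described here encode the proteins that methylate the Sm proteins, remodel the cap of spliceosomal small nuclear RNAs (snRNAs) and carry snRNAs out of the nucleus and the assembled particles (snRNPs) back in. They are PRMT5, WDR77, CLNS1A, PRMT7, TGS1, SNUPN, PHAX, XPO1, KPNB1 and NCBP1, chosen by name for these roles, 10 of the 20037 protein-coding genes in the RefSeq table of build GRCh38. Every peak whose summit lay in one of these gene spans was taken. That gave 48, 66 and 42 peaks in replicates 1, 2 and 3, out of 30111, 160931 and 65097 on the nuclear chromosomes. The study sequenced RNA recovered by RNA immunoprecipitation (RIP-seq) from HEK293T, an established human embryonic kidney line. The precipitated protein is read here as SmD2, the Sm protein encoded by SNRPD2. The 3 samples used carry the genotype SNRPD2OE, read here as overexpression of SNRPD2. Peak lists of the 3 samples of genotype Ctrl were not analysed here, so no value is set beside one of Ctrl. The deposited folds and p-values are against a background, whose library the sources used here do not name. The labels name neither the construct and its promoter nor the antibody, and do not say whether replicates came from separate cultures or clones.

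Newly made snRNA is bound at its cap by the nuclear cap-binding complex and leaves the nucleus on an export receptor. In the cytoplasm the Sm proteins, after arginine methylation by the methylosome, are loaded onto it as a ring by the SMN complex. The cap is then hypermethylated, and this cap together with the ring serves as the signal for return to the nucleus. The data here concern the RNAs of the genes that encode this machinery, not the proteins or the snRNAs themselves.

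The lists differ in make-up. The middle peak was 77, 40 and 12210 bp wide in replicates 1, 2 and 3. Peaks of at least 10 reads at the summit numbered 6493, 8403 and 5452, and peaks of a single read made up 0%, 71.4% and 55.0%. Replicate 3 stood apart, with 75.7% of its peaks wider than 1000 bp. SNRPD2 itself held 2 peaks in each list, and the strongest had 78, 80 and 78 reads, which equals the most reads at any summit of each list. By −log10 p these peaks ranked at percentile 94.8, 99.96 and 98.3, so they were not the strongest of their lists. The maximum was close in lists of unlike make-up, and whether a limit on counted reads set it was not tested. The reads at a summit were worked out from the deposited fold and p. In the 10 genes 4, 0 and 9 peaks of replicates 1, 2 and 3 had more than 1 possible number of reads, and the closest was taken. A fold is on the scale of its own list, so it is used only within that list. Depth beyond these reads is unknown, and so is whether duplicates are among them. Because the library behind the background is not named, more RNA of a gene and more RNA bound by SmD2 cannot be told apart here.

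Sequence could be read where a RefSeq window around a transcription start met a peak of these genes. Of the 10 genes, 7 had such a window, running from 250 bases before the start to 50 after it, in build GRCh38.p14. CLNS1A is shown because a peak of each list reached the 50 transcribed bases of its window, the only gene of the 7 where this was so. These peaks ended short of the annotated start at 77637794. The bases are chr11:77637745-77637774 on the minus strand, the last 30 of those 50, so the first transcribed bases are not printed. The capitals mark what peaks of all 3 lists covered.
CLNS1A: tggtgcacgcattgctgtGCTCCAACTCCC
At PRMT5 the only peak that reached such a window was one of replicate 1. The bases are chr14:22929327-22929356 on the minus strand, again the last 30 of the window, with the coverage of that peak in capitals.
PRMT5: ggcgatggcgGTCGGGGGTGCTGGTGGGAG
The start window of LOC124903285, a long noncoding RNA gene annotated on the other strand inside PRMT5, holds the interior of PRMT5 under peaks of replicates 1 and 2. It is printed as the reverse complement, in the direction of PRMT5, for chr14:22924051-22924350 on the minus strand, and capitals mark bases covered in both replicates.
PRMT5 interior: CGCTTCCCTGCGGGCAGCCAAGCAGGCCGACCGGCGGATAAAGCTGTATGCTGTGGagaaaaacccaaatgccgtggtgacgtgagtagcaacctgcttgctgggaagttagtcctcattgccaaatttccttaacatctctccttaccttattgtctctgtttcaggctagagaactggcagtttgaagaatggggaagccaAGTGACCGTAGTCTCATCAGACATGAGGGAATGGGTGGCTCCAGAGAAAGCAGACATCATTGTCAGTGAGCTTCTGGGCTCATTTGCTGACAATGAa
The 147 lower-case bases between the capital stretches hold gtgagt, letters usual at the start of an intron, from base 26 on. They hold ttcag, letters usual at an intron's end, 36 bases before the second capital stretch. Replicate 2 placed separate peaks on each side, with summits at 22924131 and 22924349 and 26 and 37 reads. Replicate 1 placed a single peak of 314 bp across the whole window, with its summit at 22924347 and 39 reads. As background, the second capital stretch is part of the sequence that encodes the catalytic domain of PRMT5. The window was searched on both strands for the letters TNTAA and TNTAG, which spell the sequence PUS7 prefers, and ATTTTTG, a form of the Sm site. On the strand of PRMT5 it held 0 matches of each, and on the other strand 1 match of TNTAG, outside the capitals. Of 35116 RefSeq start windows of the same length, 59.8%, 62.8% and 4.12% held these letters on either strand. The absence says only that these letters are not in this window.

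All 10 genes had at least 1 summit in every list. Of all protein-coding genes 38.5% met this, and the shares in the single lists were 45.3%, 76.7% and 65.5%. Of the 9560 protein-coding genes with spans of 8848 to 60764 bp, the range of the 10 genes, 41.1% met it, with 49.1%, 83.6% and 70.4% in the single lists. Counting just summits with 10 or more reads, 4 of the 10 genes (PRMT5, CLNS1A, KPNB1 and XPO1) had a summit in all 3 lists, against 7.46% of all protein-coding genes and 9.62% of those in the range of span. With only peaks of a deposited −log10 q of at least 1.3, which is a q of about 0.05, KPNB1 alone did, against 0.679% and 0.565%. Peaks of that strength numbered 4, 10 and 3 in replicates 1, 2 and 3. They lay in 4, 7 and 2 of the 10 genes, against 5.21%, 18.3% and 4.01% of protein-coding genes in those lists and 5.27%, 18.4% and 4.16% of those in the range of span. Peaks of at least 10 reads lay in 8, 6 and 7 of the 10 genes, against 14.2%, 15.9% and 13.4%, or 17.0%, 19.1% and 16.2% in the range of span. Such peaks numbered 34, 34 and 23 with the closest number of reads. Over the possible numbers of reads the count was 33 to 37 in replicate 1, 34 in replicate 2 and 23 to 29 in replicate 3.

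**Figure D1:**
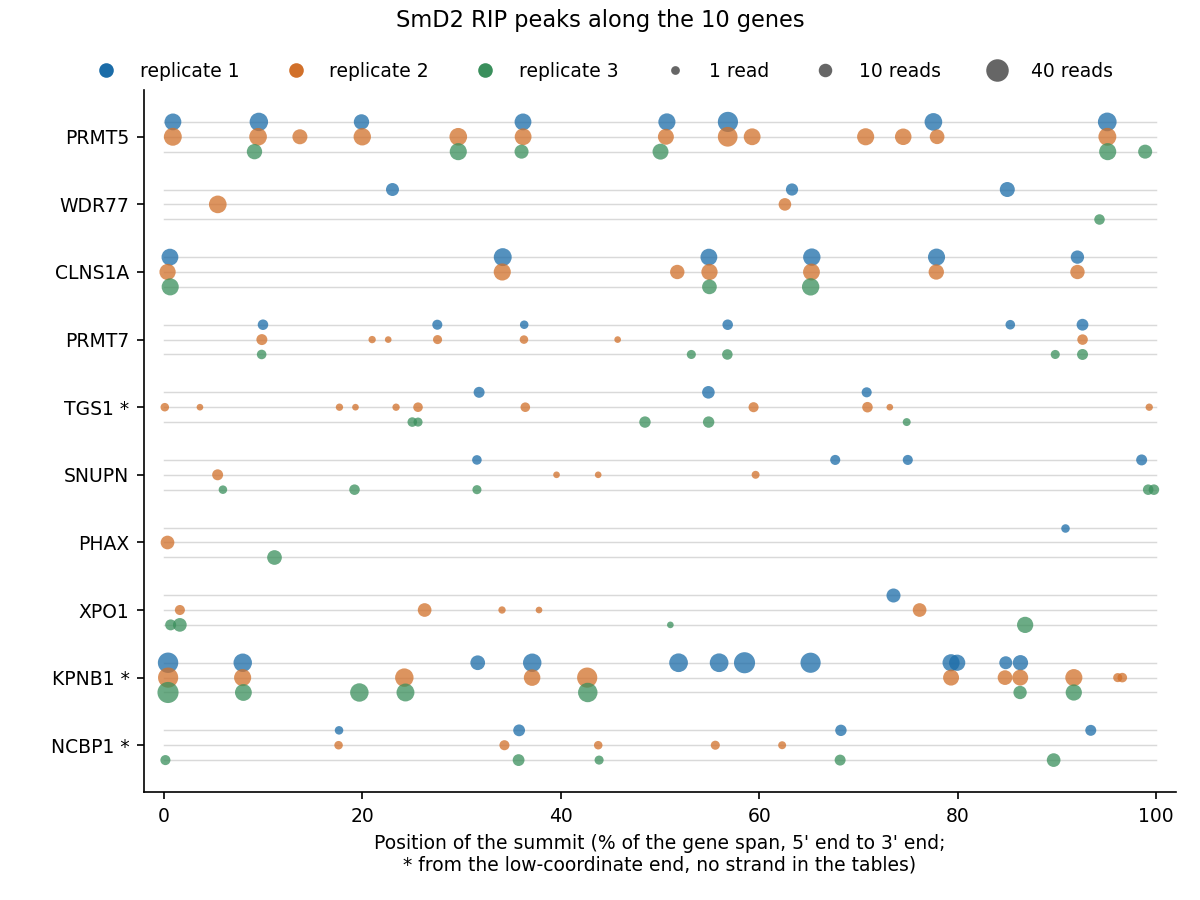
Position of every peak summit along the 10 gene spans, as a percentage of the span, with 1 row of points per replicate and point area rising with the reads at the summit. PRMT5, CLNS1A and KPNB1 carry large points at repeated positions in more than 1 replicate, and PHAX carries 1 point per replicate at 3 places.

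Taken over their spans together, the 10 genes held more summits per length than all protein-coding genes together, but single genes did not all do so. Over the spans of the 10 genes together there were 1.43, 1.97 and 1.25 summits per 10 kb in replicates 1, 2 and 3, against 0.219, 0.934 and 0.363 over all protein-coding spans. The median of the 10 genes was 1.31, 1.74 and 1.16 per 10 kb. The median of protein-coding genes in the same range of span was 0, 1.41 and 0.485. In replicate 2 SNUPN, PRMT7, NCBP1, XPO1 and PHAX lay below that median, and XPO1 and PHAX also below the median of all protein-coding genes, 1.06. In replicate 3 only PHAX lay below the median of its range of span. In replicate 1 that median was 0, so no gene could lie below it. The order of the genes was led by PRMT5 at 10.2 ± 4.07 summits per 10 kb (mean ± SD, n = 3 lists), above each other gene in each list. Most PRMT5 summits, and in replicate 3 all but that at 22928568, also lay in another annotated gene. This lead therefore counts summits that cannot be assigned to PRMT5 alone. KPNB1 followed at 2.81 ± 0.743, CLNS1A at 2.29 ± 0.895 and WDR77 at 2.14 ± 1.07. These means lay within their spread, yet KPNB1 was above both others in each list. CLNS1A and WDR77 changed order between lists. SNUPN (1.53 ± 0.203), PRMT7 (1.204 ± 0.201), TGS1 (1.19 ± 0.786) and NCBP1 (1.17 ± 0.145) lay close together. XPO1 at 0.549 ± 0.343 and PHAX at 0.380 came last, and PHAX had the same value in each list. The lists differ in length and span includes introns, so the SD covers the make-up of the lists as well as the samples.

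**Figure D2:**
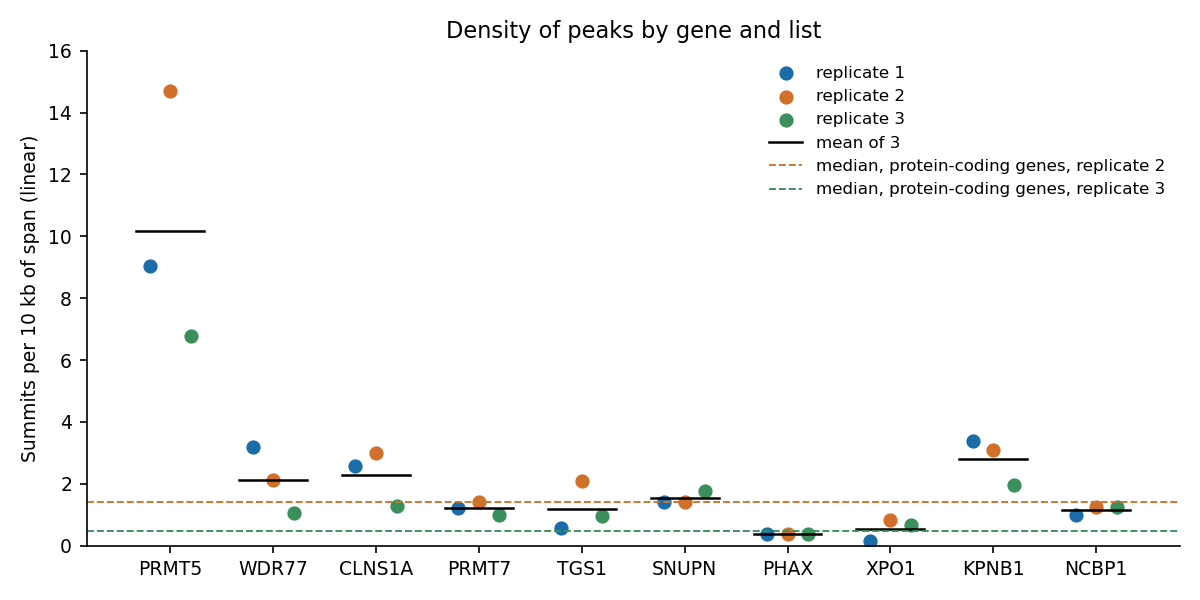
Summits per 10 kb of gene span (linear axis) for each of the 10 genes, with a point per replicate and a black line at their mean; dashed lines are the medians of protein-coding genes with spans of 8848 to 60764 bp in replicates 2 and 3 (that of replicate 1 is 0). PRMT5 lies at 9.04, 14.7 and 6.78, and every other point lies below 4.

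PRMT5 is the catalytic subunit of the methylosome and places symmetric dimethylarginine on the tails of Sm proteins. Its span is short, on chromosome 14 from 22920529 to 22929376 on the minus strand. It held 8, 13 and 6 peaks, with 21 to 39, 19 to 37 and 17 to 27 reads at their summits in replicates 1, 2 and 3. All 27 had at least 10 reads and none was wider than 1000 bp. At −log10 q of at least 1.3 there were 1, 2 and 0 peaks in replicates 1, 2 and 3. The lowest folds were 1.74, 1.57 and 2.66. The density of summits stood at percentile 99.6, 99.5 and 99.4 of all protein-coding genes. The strongest peak by −log10 p differed between the lists: at 22926174 in replicate 1 (26 reads, fold 5.53), at 22923119 in replicate 2 (27 reads, fold 3.07) and, in replicate 3, at 22926751 and 22920961 alike (27 reads and fold 3.92 each). These peaks ranked at percentile 99.03, 98.8 and 89.2 of their lists. Replicates 1 and 2 placed a summit at both 22926174 and 22926173, and replicates 2 and 3 placed one at 22926751. The summits of replicate 2 at 22923119 and of all 3 lists at the low-coordinate end also lie in PRMT5-AS1. Those at 22926174, 22926173 and 22926751 also lie in LOC124903285. Most of the 27 summits, and the strongest of each list, thus lie in another annotated gene as well. Without strand in the lists, reads of these genes and of PRMT5 cannot be told apart.

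WDR77 encodes MEP50, the WD-repeat subunit that presents substrates to PRMT5. It lies on chromosome 1 from 111439890 to 111449256 on the minus strand, a span of 9367 bp, and held 3, 2 and 1 peaks. The reads at their summits were 12, 14 and 20 in replicate 1, 13 and 29 in replicate 2, and 8 in replicate 3. Replicates 1 and 2 overlapped at 1 place, with summits at 111443327 and 111443394. The single peak of replicate 3, at 111440426, met none of the others. No peak had a −log10 q of 1.3 or more, and the strongest ranked at percentile 84.8, 87.1 and 73.3 of their lists.

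CLNS1A encodes pICln, the chaperone that holds Sm proteins and brings them to PRMT5. On chromosome 11 from 77614530 to 77637794, minus strand, it held 6, 7 and 3 peaks. Each of these 16 peaks had at least 10 reads, in ranges of 15 to 30, 18 to 27 and 19 to 28. At −log10 q of at least 1.3 there were 0, 3 and 0. Each peak of replicate 3 had a counterpart in both other lists. Replicates 1 and 2 also shared 3 places outside these: 77616376 and 77616375, 77619679 and 77619685, and 77629849 and 77629860. The strongest peak was at 77622603 in replicate 1 (28 reads, fold 2.96) and at 77622630 in replicate 3 (28 reads, fold 2.701). In replicate 2 it was at 77616375 (18 reads, fold 4.12), with the peak at 77622611 close to it in rank (percentile 99.1 for both after rounding). The peaks that reached the printed bases had their summits further into the gene, 143, 87 and 149 bp after the annotated start, with 26, 24 and 27 reads. Their folds were 1.84, 1.96 and 2.62, at percentile 1.69, 80.5 and 76.2 of their lists. None had a −log10 q of 1.3 or more.

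PRMT7, an arginine methyltransferase that adds single methyl groups, has been linked to Sm proteins beside PRMT5. Its span on chromosome 16 from 68311019 to 68360870, plus strand, held 6, 7 and 5 peaks. Their reads, taken as the closest number, were fewer than in PRMT5 and CLNS1A, at 4 to 11, 1 to 9 and 5 to 9. In replicate 3, 82 at 68337518 and 49 at 68339328 are also within the tolerance. In replicate 2, 2 peaks had a single read. Even so all 3 lists met near the 3′ end, with summits at 68357170, 68357173 and 68357171. That peak had 11, 8 and 9 reads (50 is also within the tolerance in replicate 3) and folds of 3.80, 5.58 and 3.05. It was the strongest PRMT7 peak of replicates 2 and 3, at percentile 98.9 and 90.0. In replicate 1 the strongest lay at 68353542 with 6 reads, over a background of 0.137 reads.

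TGS1, the enzyme that hypermethylates the snRNA cap, spans chromosome 8 from 55773446 to 55826445. It held 3, 11 and 5 peaks with 7 to 13, 1 to 8 and 3 to 10 reads. Of the 11 in replicate 2, 3 had a single read. The strongest peaks of replicates 1 and 2 overlapped, with summits at 55810984 (7 reads, fold 3.96) and 55811026 (8 reads, fold 6.44), the latter at percentile 99.5 of its list. In replicate 3 the strongest peak was 10974 bp wide, with its summit at 55802543 and 10 reads over a background of 0.0316 reads. A peak of replicate 1 had its summit at 55802530, inside that wide peak. The peaks of replicates 2 and 3 also met at 55787021 and 55787022, with 6 and 5 reads.

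SNUPN encodes snurportin-1, the adaptor that binds the hypermethylated cap for import. On chromosome 15 from 75598086 to 75626461, minus strand, it held 4, 4 and 5 peaks. By the closest number of reads none of these peaks had 10 (6 to 9, 1 to 9 and 4 to 8). Also within the tolerance are 11 at 75605188 and 75607263 in replicate 1 and 81 at 75624772 in replicate 3. The strongest lay at different places in each list, at 75617509 (6 reads), 75624923 (9 reads) and 75621009 (8 reads). They ranked at percentile 95.4, 98.7 and 95.4. The first of these had a counterpart in replicate 3, a peak 4193 bp wide with its summit at 75617508 and 5 reads. Replicate 3 also met replicate 1 near the 3′ end, at 75598314 and 75598501, and replicate 2 near the 5′ end, at 75624772 and 75624923. No place was shared by replicates 1 and 2.

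KPNB1 encodes importin beta, the receptor that carries the snurportin-bound snRNP through the nuclear pore. Its span on chromosome 17 from 47649919 to 47685505 held 12, 11 and 7 peaks, the most of the 10 genes in replicates 1 and 3. Reads at the summits ran from 14 to 43, from 5 to 39 and from 15 to 43. It was the 1 gene with a peak at −log10 q of at least 1.3 in every list: at 47663130 in replicate 1 (32 reads, fold 3.36), at 47678150 in replicate 2 (23 reads, fold 3.28), and at 47650068 (43 reads, fold 5.95) and 47665122 (36 reads, fold 5.07) in replicate 3. These are not 1 site. At 47650068 replicates 1 and 2 had summits too, at 47650070 and 47650072 with 40 and 39 reads, but with folds of 1.78 and 1.70 and percentiles of 17.6 and 43.5. Replicates 1 and 2 had the same summit at 47678150, with 27 and 23 reads.

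**Figure D3:**
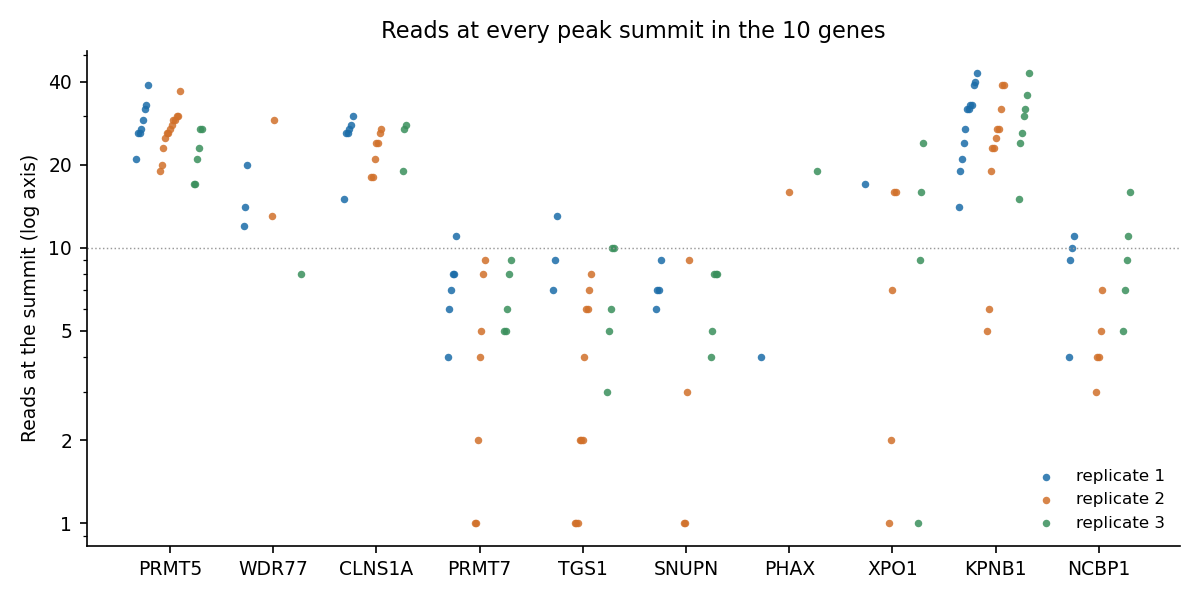
Closest number of reads at every peak summit in the 10 genes (log axis, dotted line at 10 reads), with a point per peak and a column per replicate. Peaks of PRMT5 and CLNS1A all lie above 10 reads, those of SNUPN all below 10, and KPNB1 reaches 43 reads in replicates 1 and 3.

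NCBP1 encodes CBP80, the large subunit of the nuclear cap-binding complex. On chromosome 9 from 97633821 to 97673748 it held 4, 5 and 5 peaks with 4 to 11, 3 to 7 and 5 to 16 reads. For the peak at 97633884 in replicate 3, 30 reads are also within the tolerance. The strongest were at 97648116 in replicate 1 (11 reads, fold 6.53), 97656010 in replicate 2 (5 reads, fold 4.79) and 97661032 in replicate 3 (9 reads, fold 3.10). That of replicate 1, at percentile 99.01 of its list, overlapped a peak of replicate 3 with its summit at 97648095 and 11 reads. Replicates 1 and 2 met at 97640870 and 97640851, replicates 2 and 3 at 97651299 and 97651334, and replicates 1 and 3 again at 97661064 and 97661032. No place was covered in all 3 lists. The summits from 97656010 upward also lie in the gene span of XPA, so 6 of the 14 cannot be assigned to either gene alone.

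PHAX encodes the adaptor that joins the cap-binding complex to the export receptor on snRNA. It lies on chromosome 5 from 126600947 to 126627252, plus strand, and held 1 peak in each list, at 3 different places. Replicate 1 had its summit at 126624832 with 4 reads, at 90.8% of the span from the 5′ end. Replicate 2 had it at 126601036 with 16 reads, at 0.338% of the span, and replicate 3 at 126603876 with 19 reads, at 11.1%. A summit of PHAX in every list is therefore no shared site.

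XPO1 encodes CRM1, the export receptor itself. On chromosome 2 from 61477849 to 61538612, minus strand, it held 1, 5 and 4 peaks with 17, 1 to 16 and 1 to 24 reads. Its density stood at percentile 61.7, 43.2 and 71.7 of protein-coding genes, the middle of the range. The single peak of replicate 1, at 61493980, ranked at percentile 35.4 of its list and met no peak of the others. The strongest peak of replicate 2 lay at 61522643 with 16 reads, at percentile 89.1, and it too met no peak of the others. Replicates 2 and 3 met near the 5′ end, with summits at 61537630 and 61537632 and 7 and 16 reads. That of replicate 3 had a fold of 3.97 and percentile 96.01, and that of replicate 2 a fold of 2.12 and percentile 4.28.

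A stricter view asks whether peaks of all 3 lists covered the same bases. Segments of at least 20 bp covered by all 3 lists lay in 4 of the 10 genes: PRMT5 with 4, CLNS1A with 3, KPNB1 with 3 and PRMT7 with 2. Among all protein-coding genes 10.8% had such a segment, and 10.5% of those in the same range of span. The 4 genes hold 12 segments of 31 to 227 bp, none of them from a peak wider than 1000 bp. Of protein-coding genes with a segment, 7.76% had at least 3. With only peaks of at least 10 reads 3 genes (PRMT5, CLNS1A and KPNB1) had a segment, against 3.14% of protein-coding genes. With only peaks at −log10 q of at least 1.3 there were 0, against 0.14%. Without replicate 1 the number was 8, without replicate 2 and without replicate 3 it was 7, against 56.2%, 23.8% and 24.6% of protein-coding genes.

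The summits of the 3 lists lay close together in some of these segments. In 3 of the 12 they fell within 10 bp: 4 bp at the low-coordinate end of PRMT5, which is its 3′ end (22920965, 22920964 and 22920961), 3 bp near the 3′ end of PRMT7, and 4 bp at the low-coordinate end of KPNB1. The median distance between the outermost summits was 20.5 bp over the 12 segments. Over the 1627 segments of protein-coding genes from peaks of at most 1000 bp it was 41 bp, and 17.5% fell within 10 bp. The widest distances in these genes were 67 bp at the first PRMT7 segment and 62 bp at the 5′ end of CLNS1A. The segment at the 3′ end of PRMT5, 227 bp long, lies 255 bp from the end of the span and had 33, 30 and 27 reads. It also lies in PRMT5-AS1, and those at 22924916 and 22926183 in LOC124903285. The PRMT5 segment at 22928566 lies in no other annotated gene, with 32, 29 and 21 reads.

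**Figure D4:**
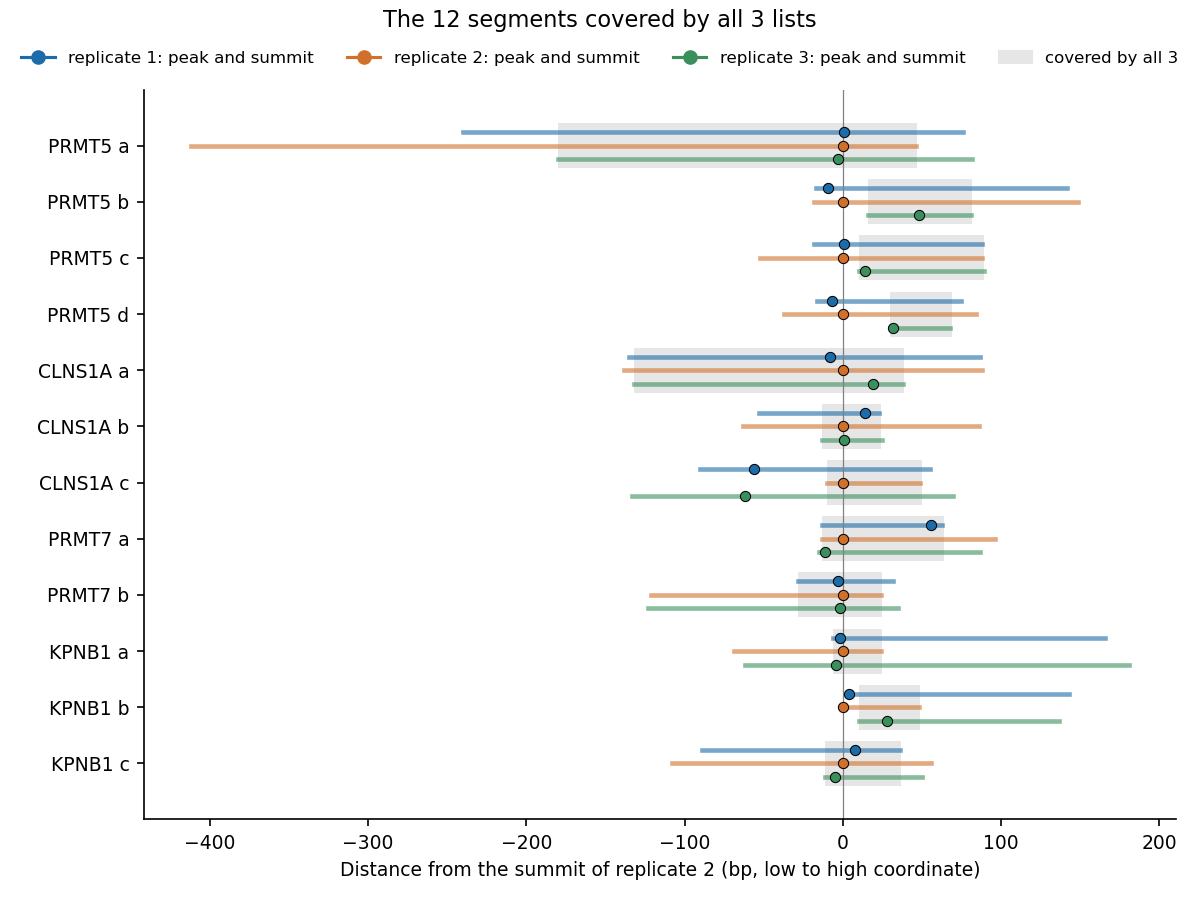
The 12 segments covered by all 3 lists (grey), drawn as distance in bp from the summit of replicate 2, with each replicate's peak as a line and its summit as a point; letters number the segments of a gene from low to high coordinate. The summits lie 3 to 67 bp apart, closest at PRMT7 b, PRMT5 a and KPNB1 a.

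Pairs of lists met in these genes as follows. In replicate 1, 27 of 48 peaks (56.2%) shared 1 bp or more with replicate 2, and in replicate 2, 28 of 66 (42.4%) did so with replicate 1. For all peaks with summits in protein-coding genes these shares were 35.0% and 8.31%. With replicate 3 the shares depended on its wide peaks. At any width, 37.5% of replicate 1 and 34.8% of replicate 2 overlapped replicate 3, against 29.2% and 47.2% in protein-coding genes, and 42.9% and 57.1% of replicate 3 overlapped replicates 1 and 2, against 16.5% and 57.7%. Among peaks of at most 1000 bp, 33.3% of replicate 1 and 30.3% of replicate 2 overlapped replicate 3, against 14.5% and 4.47% in protein-coding genes. Of the 38 such peaks of replicate 3, 42.1% overlapped replicate 1 and 55.3% replicate 2, against 27.2% and 35.2%. Peaks of a gene share its RNA and its reads, and these genes hold fewer peaks of a single read in replicate 2 (8 of 66) than the whole list, so the shares are given as a description.

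Along the 7 genes whose strand is known, the lists differed in where summits lay. The median position was 56.8%, 37.8% and 51.0% of the span from the 5′ end, over 29, 39 and 25 summits in replicates 1, 2 and 3. In protein-coding genes of the same range of span it was 58.9%, 56.6% and 49.8%. The first 10% of the span held 13.8%, 20.5% and 24% of the summits, against 16.4%, 13.6% and 17.7%. The last 10% held 17.2%, 7.69% and 24%, against 17.1%, 17.2% and 14.4%. PRMT5 and CLNS1A supply much of these counts, and the lists did not agree on which end held more. For TGS1, KPNB1 and NCBP1 the tables used give no strand. At KPNB1 a summit of each list lay within the first 1% of the span from the low-coordinate end.

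The other genes of the pathway were counted in 7 lists of 55 genes. A segment covered by all 3 lists lay in 22 of the 55 (40%), the same share as in the 10 genes, against 10.8% of all protein-coding genes. A summit in all 3 lists was held by 39 of them, against 38.5% of all protein-coding genes. Of the PRMT5 partners, RIOK1, a kinase that recruits substrates to PRMT5, had 3 segments, and COPRS had 0 summits in every list. Of 7 other arginine methyltransferases only PRMT1, the main enzyme for asymmetric dimethylation, had a segment. Among 5 methylated substrates only COIL, the Cajal body scaffold coilin, had one. SNRPB, SNRPD1 and SNRPD3, which encode the Sm proteins that PRMT5 methylates, had 2, 1 and 0 summits in replicate 1, 3, 1 and 0 in replicate 2, and 0, 2 and 2 in replicate 3.

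For transport, of 9 partners of cap binding and export, SRRT (the cap-binding partner ARS2), RANBP3 and RANGAP1 had a segment, while RAN, the small GTPase that drives transport, had 0 summits in every list over its span of 5613 bp. In the SMN complex, which loads the Sm ring, GEMIN5 had 5 segments, and GEMIN4 and GEMIN8 had 1 each. Among 16 other import receptors 8 had a segment: IPO9, KPNA4, IPO11, TNPO1, TNPO3, IPO7, IPO4 and KPNA2. Among 6 other export receptors 5 did: XPO5, XPO7, XPO4, XPO6 and CSE1L. Of all protein-coding genes 10.8% had a segment. XPO5, the export receptor for microRNA precursors, had 5 segments where XPO1 had 0. The median span was 67695 bp for the import and 70314 bp for the export receptors, against 31982 bp for the 10 genes. Protein-coding genes with a segment had a median span of 56354 bp, against 24115 bp for all. Shares among protein-coding genes as long as the import and export receptors were not counted. RNA levels were not used, and their part in these counts was not tested.

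**Figure D5:**
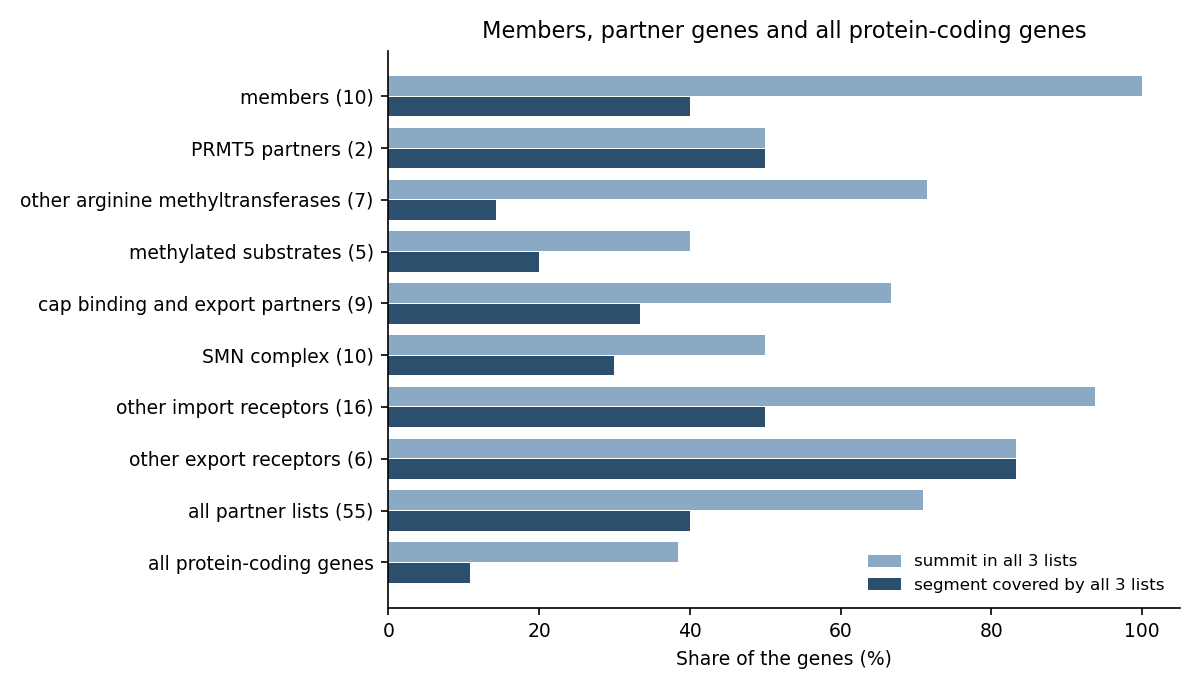
Share of genes (%) with a summit in all 3 lists (light bars) and with a segment covered by all 3 lists (dark bars), for the 10 genes, the 7 partner lists (number of genes in brackets), all partner lists together and all protein-coding genes. The 10 genes and the partner genes together both reach 40% for segments, against 10.8% of protein-coding genes.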

How the data were processed

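The values are those of 3 peak lists of RIP samples of genotype SNRPD2OE, 1 list per sample. The submitters' processing notes name MACS2 2.2.9.1, cutadapt 4.2, STAR 2.7.10b and build GRCh38. For caller options, background library, duplicates and strand, the sources used here give nothing. The deposited score is the whole part of 10 times the deposited −log10 p-value. The deposited fold, −log10 p and −log10 q are the authors' own values at the summit, and starts, ends and summit offsets make up the other deposited columns. The p-value is unadjusted.

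A summit was the start plus the offset, counted from 1, and gene spans came from RefSeq. Reads at a summit were recovered as the whole number that, with 1 read at a height of 0.5995, 1 and 0.2537 in replicates 1, 2 and 3 and a pseudocount of 1 in the fold, gave the deposited p most closely, within 0.002. Every peak had a solution, but 9.48%, 0.501% and 3.98% of the peaks had more than 1 within that tolerance, so their reads are the best match rather than the only one. Lists, members and partner genes were chosen with earlier results of these data known. All 10 members are named, each with the reads or rank of its strongest peak by −log10 p, and partner genes with a segment covered by all 3 lists. No test between groups was made, since the lists analysed belong to 1 group. Segments needed 20 bp. Counts of summits and segments and recovered reads were tested on simulated data, and 100% came back right. The simulated fold and p were made with the same formula that recovers the reads. That test therefore cannot show whether the formula holds for the deposited lists. Work was done in Python 3.11.15 with scipy 1.17.1.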

Additional observations from a re-analysis of the deposited data

How the results depend on the processing

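That all 10 genes had a summit in all 3 lists held with peaks of at most 1000 bp and with lists of equal length. It held too with summits in no other gene and with any overlap of 1 bp. The shares of all protein-coding genes under these settings were 23.9%, 30.3%, 33.6% and 39.2%. Without replicate 1, 2 or 3 in turn all 10 genes had a summit in both other lists, against 61.2%, 39.4% and 43.6%. The number with a summit in all 3 lists was 4 with at least 10 reads (7.46% of protein-coding genes) and 1 with −log10 q from 1.3 up (0.679%). The number of genes with a shared segment, 4 (10.8% of protein-coding genes), was 3 with at least 10 reads (PRMT7 lost, 3.14%) or lists of equal length (KPNB1 lost, 6.43%). It was 2 with segments of at least 100 bp (1.55%) and 0 at that q (0.14%). Without 1 replicate it was 7 to 8, against 56.2%, 23.8% and 24.6% without replicates 1, 2 and 3. The peaks in the 10 genes fell from 48, 66 and 42 to 4, 10 and 3 at that q. In replicate 2 they were 34 with at least 10 reads and 31 in lists of equal length, and in replicate 3 they were 23 with at least 10 reads. The cause was not tested. No paired analysis was possible because the samples that share replicate numbers with these are the controls, whose lists were not analysed here. A gene without a peak is not shown to be unbound.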
